A study of Mus musculus with 96 samples.

Results

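The contacts of the 129S5 and the C57Bl6 copy of chromosome 4 were compared in wild-type mouse cells, using 36 of the 96 libraries of the series. The members were the libraries of the 2 control lines of mouse embryonic fibroblasts (MEFs), 129S5E117 and 129S5E118, here called E117 and E118, at 9 of the 12 viewpoints. Viewpoints 9, 10 and 11, at 153.4, 153.9 and 154.9 Mb, were left out because libraries there were shared or nearly empty. A line had a single library for each homologue at a viewpoint, so every comparison set 2 libraries of the 129S5 allele against 2 of the C57Bl6 allele. Both lines were genotype +129/+Bl6, from F1 embryos at embryonic day 13.5, and were grown to confluence without treatment and taken at passage 4. The +129 chromosome came from strain 129S5SvEvBrd and the +Bl6 chromosome from C57BL/6J. The embryos came from crosses of a chimera that also transmitted engineered chromosomes, and each line stands for 1 culture. Lines 129S5E71 and 129S5E98 (E71 and E98), genotype Df/+DBl6, entered only as checks. Their 129S5 chromosome, Df, lacks 4.3 Mb of band 4E2, and their C57Bl6 chromosome, +DBl6, is intact. The files hold contacts and no RNA, so the fibroblast label was not checked against marker genes.

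PE-4Cseq is a form of chromosome conformation capture. Cross-linked chromatin is cut with HindIII and religated, and the partners of 1 chosen restriction fragment, the viewpoint, are amplified and sequenced in paired ends. One read of the pair starts in the viewpoint and covers a strain polymorphism (SNP), which tells the homologue apart, and the other read names the partner fragment. Contacts along a chromosome fall steeply with distance, because the chromatin fibre behaves as a flexible polymer, and the fall is interrupted by domains whose interior contacts itself more than its surroundings. In a hybrid nucleus the homologues share the same nuclear environment and differ in sequence, so an allele comparison within a line holds the cells, the template and the amplification constant. A 4C count is an average over many cells, and a contact made in fewer cells cannot be told apart from one captured less often per cell.

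The viewpoint reads are shown first because the base that splits them carries every comparison below. Each is read 5′ to 3′ from its primer to just past the SNP in the NCBI37 (mm9) reference, with the SNP base in capitals. The reference is a C57BL/6J sequence, so the capital base is the C57Bl6 one.
viewpoint 1, chr4:147977866-147977902, plus strand, an exon of Masp2: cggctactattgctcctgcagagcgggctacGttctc
viewpoint 2, chr4:148921755-148921783, plus strand, an intron of Ctnnbip1: cctgtgcatatatcatacaaaacTgtgcc
viewpoint 3, chr4:150429598-150429643, minus strand, an intron of Vamp3: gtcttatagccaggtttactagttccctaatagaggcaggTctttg
viewpoint 4, chr4:150984538-150984569, plus strand, an intron of Camta1: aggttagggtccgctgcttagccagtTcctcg
viewpoint 6, chr4:152144823-152144874, minus strand, intergenic: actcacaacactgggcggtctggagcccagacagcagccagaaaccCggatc
viewpoint 7, chr4:152481108-152481140, plus strand, intergenic: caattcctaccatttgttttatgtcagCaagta
viewpoint 8, chr4:152922489-152922513, minus strand, intergenic: gaacgacaggcaacctggaTgccca
viewpoint 12, chr4:155555394-155555456, minus strand, an intron of Agrn: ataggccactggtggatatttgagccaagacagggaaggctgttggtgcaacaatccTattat

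Written for the plus strand with the C57Bl6 base first, the chromosome 4 position next and the 129S5 base last, the substitutions were G147977897A at viewpoint 1, T148921778C at viewpoint 2, A150429603T at viewpoint 3 and T150984564C at viewpoint 4. They were G152144828C at viewpoint 6, C152481135A at viewpoint 7, A152922494G at viewpoint 8 and A155555399G at viewpoint 12. Viewpoint 5 lies in an intron of Acot7, an acyl-CoA thioesterase gene. Its listed SNP, C151610749T, lies 2 bases before the first base of the read that starts at its listed primer. Such a read does not cover it at any length, so no read is printed for viewpoint 5. The genes under the other viewpoints include Masp2, a protease of the lectin pathway of complement, Ctnnbip1, an inhibitor of beta-catenin, Vamp3, a vesicle fusion protein, Camta1, a calmodulin-binding transcription activator, and Agrn, the proteoglycan agrin. At viewpoints 2, 3 and 4 the fragment with the most reads was not the one that holds the primer but another close by, and the primer fragment was taken as the viewpoint. Viewpoints 6, 7 and 8 overlap no protein-coding gene, and intergenic is used in that sense throughout. The nearest gene is Nphp4 for viewpoint 6 and Ajap1 for viewpoints 7 and 8.

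The 36 libraries held 64058 to 2469832 chromosome 4 reads, with a median of 539896. Reads more than 20 kb from the viewpoint numbered 19409 to 1267893 per library, 16.6% to 97.1% of the total. Line E117 was much shallower than E118 at viewpoints 6, 7 and 8. At viewpoint 8 its alleles had 28060 and 19409 reads outside 20 kb, against 529360 and 384165 in E118. PCR products were purified with different kits in E117 and E118, so line and purification cannot be told apart. A fragment with at least 5 reads is called captured below, and 591 to 5360 of the 48320 HindIII fragments of chromosome 4 were captured per library.

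The homologues took nearly equal parts of the reads. The 129S5 allele held 45.3% to 60.6% of the reads of a line and viewpoint, with a median of 48.7% over 18 pairs, and it was below 50% in 13 of the 18. Viewpoint 8 stood apart in both lines, with 60.6% in E117 (95% Wilson interval 60.5% to 60.8%) and 60.0% in E118 (59.9% to 60.0%). The intervals cover counting error only, because PCR reads without molecular identifiers are not independent molecules. Counted by fragments captured more than 20 kb from the viewpoint, the 129S5 share at viewpoint 8 was 51.5% and 50.3%. The range of this share over all 18 pairs was 47.8% to 51.5%, with a median of 49.1%. The read shares include the 20 kb zone, where most reads of viewpoint 8 lay. Outside it 129S5 and C57Bl6 had 28060 and 19409 reads in E117, and 529360 and 384165 in E118. Outside the zone the excess of 129S5 was therefore in reads per captured fragment, and far less in the number of fragments captured.

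The fall of contacts with distance was close to the same on both homologues. It was summarised by the decay exponent, the slope of log10 reads per base against log10 distance at 100 kb, where a more negative value is a steeper fall. Only fragments with a read entered the fit, so the exponent can depend on depth. Exponents ran from -1.39 to -0.55 over the 36 libraries, with a median of -0.998. The median absolute difference between alleles of a line was 0.027, and that between lines of an allele was 0.11. No viewpoint passed the test for the allele (limma with the line as a block, adjusted p below 0.05 in 0 of 9, 0%; 2 of 9 had an unadjusted p below 0.05), while 6 of 9 (66.7%) passed it for the line.

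The largest allele difference was at viewpoint 2, in Ctnnbip1. Its 129S5 exponents were -1.20 in E117 and -1.31 in E118, and its C57Bl6 exponents were -1.27 and -1.39. The C57Bl6 contacts fell more steeply in both lines, by 0.075 (SE 0.0067, n = 2 lines, limma adjusted p = 0.065). Viewpoint 3, in Vamp3, followed, with 129S5 exponents of -0.97 and -1.03 and C57Bl6 exponents of -1.05 and -1.08, a difference of 0.063 (SE 0.0096, limma adjusted p = 0.093). At both viewpoints the alleles were ordered alike in both lines, and neither difference passed the threshold. At viewpoint 7 the exponents were -0.73 and -0.74 in E117 and -1.15 and -1.18 in E118, 129S5 first. There the lines were far apart and the alleles of each line nearly coincided. The line differences were largest at viewpoints 6, 7 and 8, where E117 was much shallower, so line and depth cannot be told apart there. Only at viewpoints 2, 3, 4, 6 and 7 did the allele difference have the same sign in both lines. With a straight line through binned reads from 20 kb to 2 Mb, 3 viewpoints passed the test, and with other spline settings or a read minimum 0 or 1 did.

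**Figure D1:**
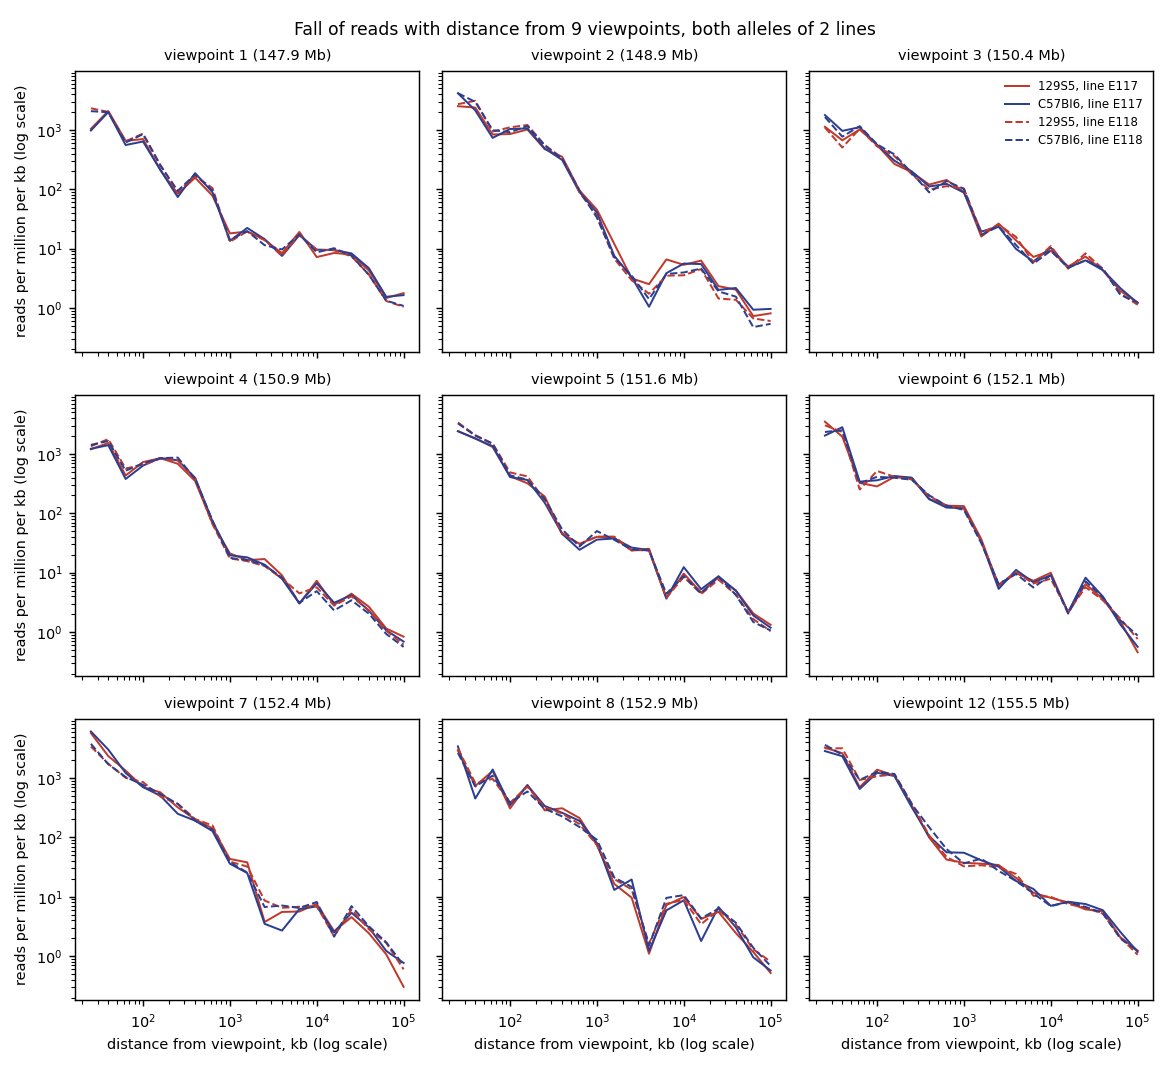
RPM per kb (reads scaled to the library's reads outside the viewpoint zone, log scale) against distance from the viewpoint in kb (log scale), in 1 panel per viewpoint, with 1 line per library (red 129S5, blue C57Bl6, solid E117, dashed E118). The curves of the 2 alleles of a line run close together within 1 Mb and part at single distances beyond it, most widely in E117 (at viewpoint 8, 9.64 on 129S5 and 19.5 on C57Bl6 near 2.5 Mb), and the sharp drops near 1 Mb, as at viewpoints 3 and 6, lie at the same distance on both homologues.

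**Figure D2:**
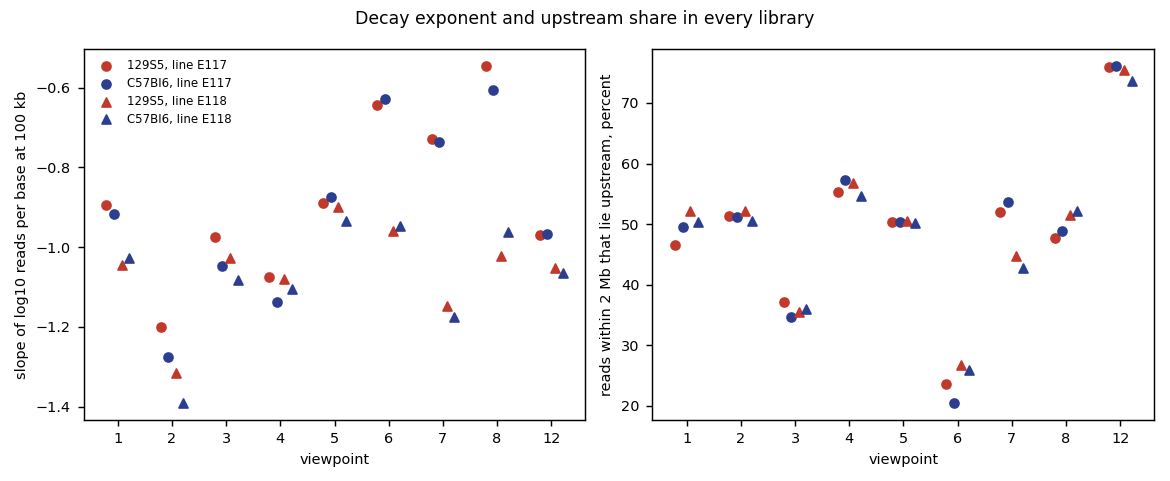
Left, the decay exponent at 100 kb in each of the 36 libraries by viewpoint. Right, the percent of reads within 2 Mb that lay upstream, at lower coordinates (red 129S5, blue C57Bl6, circles E117, triangles E118). Exponents of the alleles of a line sit close together, and at viewpoints 6, 7 and 8, where E117 was shallower, the lines are far apart.

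The percent of reads in 4 classes of distance gave the same picture with 3 exceptions. Over 20 to 100 kb, 0.1 to 1 Mb, 1 to 10 Mb and over 10 Mb, alleles of a line differed by a median of 0.88, 1.7, 1.1 and 1.5 percentage points, and lines of an allele by 2.5, 2.0, 1.0 and 3.9. The allele term passed in 3 of 36 classes (8.33%; limma, adjusted p below 0.05), 1 higher on 129S5 (2.78%) and 2 higher on C57Bl6 (5.56%), and the line term in 12 (33.3%). At viewpoint 3 the class from 20 to 100 kb held 13.0% of 129S5 and 16.5% of C57Bl6 reads in E117, and 12.6% and 15.5% in E118. The C57Bl6 share was higher in both lines and the groups did not overlap (log2 difference -0.32, SE 0.076, limma adjusted p = 0.0048). The SE was the same in all 36 classes, because the fit pooled their variance. At viewpoint 7 the class from 1 to 10 Mb held 13.1% of 129S5 and 9.47% of C57Bl6 reads in E117, and 12.6% and 12.0% in E118 (log2 difference 0.27, limma adjusted p = 0.016). Its class over 10 Mb held 18.6% and 23.8% in E117 and 24.7% and 27.3% in E118 (log2 difference -0.25, limma adjusted p = 0.028). At viewpoint 7 the shift from over 10 Mb to 1 to 10 Mb on the 129S5 homologue had the same direction in both lines and was smaller in E118, the deeper line. None of the 3 classes passed without the line block or with any 1 of the 4 libraries left out. None passed with a viewpoint zone of 50 kb or when captured fragments were counted in place of reads. With captured fragments the log2 difference of the class at viewpoint 3 reversed, to 0.032. That class also lost its call when distances at viewpoint 3 were taken from the most-read fragment (log2 difference -0.21, limma adjusted p = 0.091), an alternative chosen after seeing the data.

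Contact domains around the viewpoints gave no call for the allele. They were described at each viewpoint by the percent of reads within 2 Mb that lay upstream and by the distance on each side that held 80% of those reads, called the reach. None of 26 measures passed (0%; limma with the line as a block, 1 with an unadjusted p below 0.05, 3.85%), and 1 passed for the line (3.85%). The upstream share ran from 20.5% to 76.1% over libraries. It separated the viewpoints far more than the alleles, which differed within a line by a median of 1.67 and at most 3.07 percentage points. Viewpoint 6 sent most of its contacts downstream, with an upstream share of 23.6% and 26.7% on 129S5 and 20.5% and 25.9% on C57Bl6. Its downstream reach was 895 and 900 kb on 129S5 and 893 and 900 kb on C57Bl6, so all 4 libraries placed that limit at nearly the same position.

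The downstream reach was the most alike of the measures, with a median absolute allele difference of 0.02 on the log2 scale against 0.10 between lines. At viewpoint 4, in Camta1, it was 288 and 262 kb on 129S5 and 285 and 266 kb on C57Bl6. The upstream reach was less alike, with a median absolute difference of 0.25 between alleles and 0.21 between lines on the log2 scale. Its highest differences were 0.62 between alleles and 1.16 between lines. The smallest p belonged to the upstream reach of viewpoint 12, in Agrn. It was 367 and 314 kb on 129S5 and 564 and 438 kb on C57Bl6, shorter on 129S5 in both lines (log2 difference -0.55, limma adjusted p = 0.976).

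Reads in 80 kb windows were correlated as log2(RPM + 1), where RPM is the reads scaled to a library of 1000000 reads outside the viewpoint zone. Close to the viewpoint this placed the homologues of a line about as near each other as the same homologue of different lines. For shared captured fragments the order depended on which library of a pair was taken as the whole. Within 2 Mb the Pearson r had a median of 0.929 over the 18 allele pairs, 0.915 over the 18 line pairs and 0.912 over pairs that differed in both. These are descriptions over windows of libraries that share cells or a viewpoint, with no test. The captured near fragments in common, as a share of the smaller library of each pair, had a median of 85.7% between alleles and 91.8% between lines. Both allele pairs lay below both line pairs in this share at 5 of 9 viewpoints and above them at 1. As a share of the larger library, both allele pairs lay above both line pairs at viewpoints 1, 2, 3, 5, 6, 7 and 8. At viewpoints 4 and 12 they did not. At viewpoint 8, for example, lines shared 42.0% and 40.1% of the larger library against 95.3% and 96.4% of the smaller. Alleles there shared 73.0% and 88.9% of the larger and 79.1% and 90.8% of the smaller. Beyond 2 Mb the median r was 0.590 between alleles of a line (0.438 to 0.756) and 0.484 between lines of an allele (0.431 to 0.606). In the far range both allele pairs lay above both line pairs at 6 of 9 viewpoints. The share of captured far fragments in common, taken from the smaller library of each pair, was 30.9% between alleles and 30.6% between lines. Taken from the larger library, both allele pairs lay above both line pairs at viewpoints 1, 2, 3, 6, 7 and 8. They did not at viewpoints 4, 5 and 12. At viewpoint 8 alleles shared 14.5% and 45.3% of the larger library, and lines 5.11% and 4.37%.

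Far fragments with many reads from 1 allele often had a few reads from the other allele of the same line. Among 15544 far fragments with at least 100 reads in a library, the other allele of the same line had a read at 13921 (89.6%). The same allele of the other line had one at 41.2%, and the other allele of the other line at 41.1%. The reads of the other allele at these fragments were few, with a median over libraries of 3.13% of the first allele's reads, and by viewpoint the medians ran from 0.25% at viewpoint 6 to 4.47% at viewpoint 8, with 26.1% at viewpoint 12. At far fragments captured from both alleles of a line, log10 reads correlated at a median r of -0.10, against 0.24 between lines. This contrast depended on the read minimum. With captures of 1 read the medians were -0.16 and 0.20, and with captures of 20 reads they were 0.24 and 0.24.

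A level of reads assigned to an absent allele can be read from E71 and E98, whose 129S5 chromosome lacks viewpoints 3 to 8. Reads called 129S5 there made up 0.044% to 0.62% of all reads over 12 line and viewpoint pairs, with a median of 0.28%. When fragments with fewer than 10% of the reads of the other allele of the same line were set to 0, a limit chosen after seeing the data, the far r was 0.481 between alleles and 0.463 between lines. Both allele pairs then lay above both line pairs at 1 of 9 viewpoints and below them at 1. This removal is set by the other allele of the same line, so by its construction it can make alleles of a line less alike and leaves line pairs nearly as they were. With a limit of 1% the order was unchanged, at 6 of 9. The part of misassigned reads in the likeness of homologues was not tested.

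**Figure D3:**
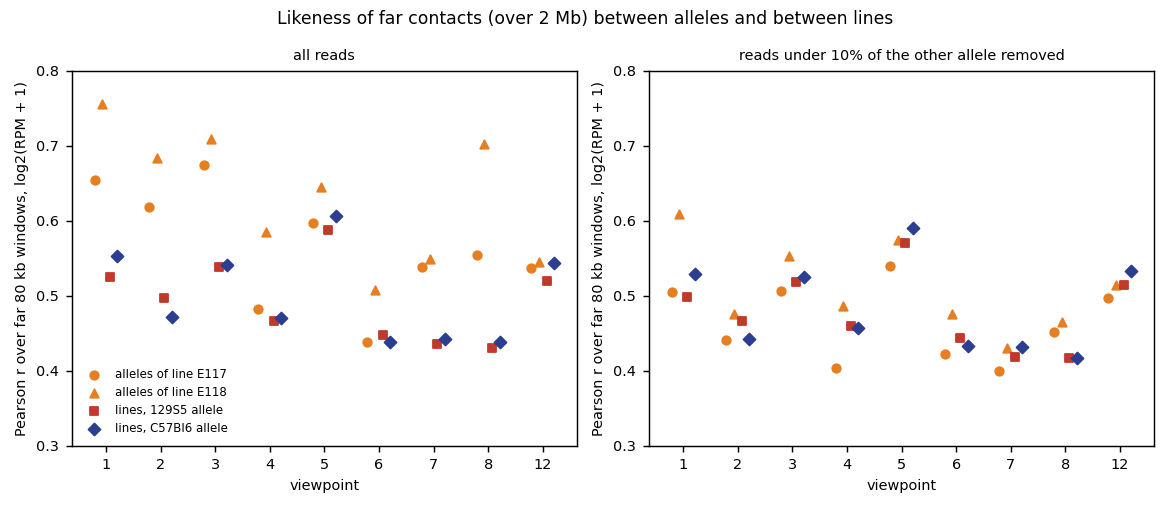
Pearson r over 80 kb windows beyond 2 Mb for each viewpoint, with all reads (left) and after removal of fragments with under 10% of the reads of the other allele (right). Orange marks compare alleles of a line (circle E117, triangle E118), red squares and blue diamonds compare lines of an allele. The orange marks stand above the others at 6 of 9 viewpoints on the left and at 1 of 9 on the right.

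Single windows differed between homologues in few places. Of 8924 windows tested over the 9 viewpoints, 5 passed for the allele (0.056%; edgeR quasi-likelihood test with the line as a block, adjusted over all windows), 1 higher on 129S5 (0.0112%) and 4 higher on C57Bl6 (0.0448%). An unadjusted p below 0.05 was reached by 228 windows (2.55%), and the line term passed in 18 (0.202%). DESeq2 called 163 windows, and the fit without the line block and a Mann-Whitney test per line called none. Leaving out C57Bl6 of E118 gave 4 calls, and leaving out any of the other 3 libraries of a viewpoint gave 0. The 3 windows with the smallest adjusted p are given first.

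The window with the smallest p spans viewpoint 3, whose own zone of 20 kb on either side was left out, at chr4:150400001-150480000. It holds Per3, a circadian clock gene, Vamp3 and the 3′ end of Camta1, which lies on the minus strand. Its reads from 129S5 and C57Bl6 were 14051 and 22975 in E117, and 36544 and 56238 in E118. C57Bl6 was higher in both lines (log2 difference -0.67, SE 0.11, n = 2 lines, edgeR adjusted p = 3.44e-06), whereas the line term was -0.12 and did not pass. With the most-read fragment as the viewpoint, an alternative chosen after seeing the data, the difference was -0.30 (edgeR adjusted p = 0.0017), and with a viewpoint zone of 50 kb it was -0.05 and did not pass. Of its 18 fragments 9 were higher on C57Bl6 and 3 on 129S5 in both lines. The most different was chr4:150462213-150467913, which covers exon sequence of Camta1, with 84 and 2325 reads in E117 and 227 and 6298 in E118. Without that fragment, likewise an alternative chosen after seeing the data, the log2 ratio of RPM sums went from -0.61 to -0.45. The 8 other viewpoints gave the fragment the same direction, capturing it from 129S5 at 1 and 3 of them and from C57Bl6 at 5 and 6, with 14 and 803 reads in E117 and 52 and 1809 in E118.

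The window with the next smallest p lay 71 kb upstream of viewpoint 12, at chr4:155440001-155520000, over 9430015G10Rik. Its reads were 16790 on 129S5 and 13050 on C57Bl6 in E117, and 22618 and 18762 in E118 (log2 difference 0.33, SE 0.065, edgeR adjusted p = 0.0017). It was the 1 window higher on 129S5, and 1 intergenic fragment decided it. Fragment chr4:155505613-155513995 had 2944 and 925 reads in E117, and 5132 and 1244 in E118. Without it the log2 ratio of RPM sums fell from 0.28 to 0.05, and in E118 the C57Bl6 allele was then the higher one, at 123770 against 118979 RPM. With a viewpoint zone of 50 kb, which takes that fragment out, the log2 difference was 0.07 and did not pass.

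The other 3 windows were higher on C57Bl6. At viewpoint 4 the window chr4:151200001-151280000, over the 5′ end of Camta1, had 16347 and 23402 reads in E117 and 18376 and 23263 in E118 (log2 difference -0.38, SE 0.078, edgeR adjusted p = 0.0039), and its line term also passed. Without the most different fragment of that window, the log2 ratio of RPM sums went from -0.23 to -0.20, an alternative chosen after seeing the data. The last 2 windows, beyond the 3 the naming rule takes, are named because the count is small. At viewpoint 4 the window chr4:150720001-150800000, also within Camta1, had 9655 and 15410 reads in E117 and 11108 and 13816 in E118 (log2 difference -0.44, SE 0.10, edgeR adjusted p = 0.038). There 1 intronic fragment, chr4:150745382-150748389, had 87 and 865 reads in E117 and 70 and 1128 in E118. Without it the log2 ratio of RPM sums went from -0.29 to -0.20. In E118 129S5 was then at 49294 RPM and C57Bl6 at 51263.

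The only called window at a long distance was chr4:128800001-128880000, 26.7 Mb from viewpoint 12. It covers Fndc5, which encodes the precursor of irisin, S100pbp and Yars, a tyrosyl-tRNA synthetase gene, and had 42 and 190 reads in E117 and 4 and 226 in E118 (log2 difference -3.75, SE 0.89, edgeR adjusted p = 0.049). Most of its C57Bl6 reads fell on 1 fragment in Fndc5, for example 124 in E118 against 1 on 129S5. From the other viewpoints the lines put the alleles in opposite order at that fragment. It had 227 reads on 129S5 and 48 on C57Bl6 in E117, and 18 and 271 in E118. When captured fragments were counted in place of reads, no window passed. The log2 difference of the first window named at viewpoint 3 then reversed to 0.029. That of the first window named at viewpoint 4 reversed to 0.11.

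**Figure D4:**
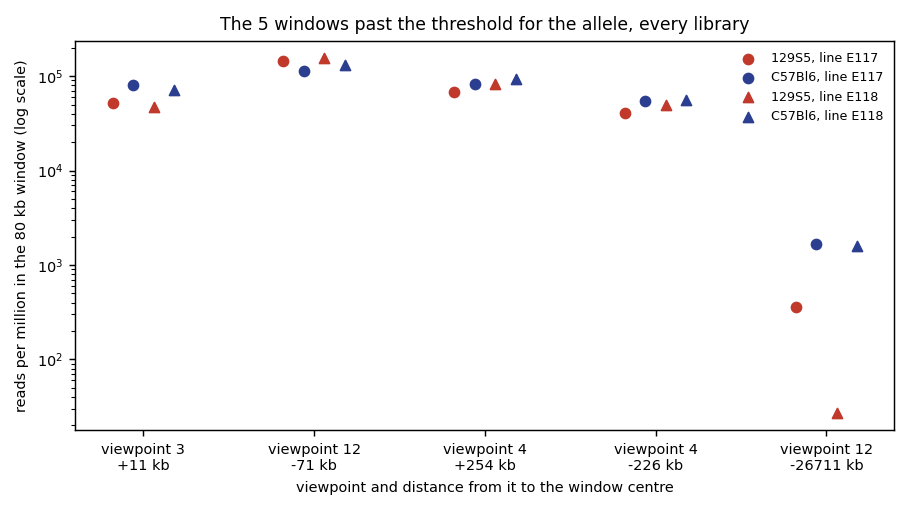
RPM (log scale) in each of the 5 called windows, in every library (red 129S5, blue C57Bl6, circles E117, triangles E118), labelled by viewpoint and by distance from it to the window centre. In each window both lines order the alleles alike, and the gap is widest in the window 26.7 Mb from viewpoint 12.

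The ends of the most different fragment in 3 of these windows are shown because the partner read is aligned to such ends, over 30 bases. The HindIII site is in capitals, each end is read into the fragment, and each occurred once among the fragment ends of the chromosome 4 reference.
viewpoint 3 window, start of the fragment, chr4:150462207-150462236, plus strand: AAGCTTcaggaacagtagtgtgacagcaat
viewpoint 3 window, end of the fragment, chr4:150467884-150467913, minus strand: AAGCTTaaaataggatgtccaacaccagga
viewpoint 12 window, start of the fragment, chr4:155505607-155505636, plus strand: AAGCTTgttgggcccctattgaggccctcc
viewpoint 12 window, end of the fragment, chr4:155513966-155513995, minus strand: AAGCTTttctataggcccaagataatatct
viewpoint 4 window, start of the fragment, chr4:150745376-150745405, plus strand: AAGCTTgggtgtatttggggttagggatgt
viewpoint 4 window, end of the fragment, chr4:150748360-150748389, minus strand: AAGCTTgaactcggacaacgtgtgtgtgtg

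Distal contacts on a coarse scale gave no call. Chromosome 4 was cut into 16 blocks, and none of the 144 block and viewpoint pairs passed (0%; limma with the line as a block, 9 with an unadjusted p below 0.05, 6.25%). The smallest p was at viewpoint 7 for the block from 58 to 63 Mb, which held 0.032% of 129S5 and 0.164% of C57Bl6 reads in E117, and 0.131% and 0.324% in E118 (log2 difference -1.64, limma adjusted p = 0.466). In both lines the C57Bl6 share of this block was also the higher one at viewpoints 1, 3, 6 and 12, and none of these passed. From viewpoint 2 the block went the other way, with 0.957% and 0.588% in E117 and 0.679% and 0.383% in E118. At viewpoints 4, 5 and 8 the lines were in opposite order.

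Fragments were also pooled over viewpoints, by counting how many of the 9 captured each fragment. None of 5769 fragments passed (0%; edgeR, 87 with an unadjusted p below 0.05, 1.51%, and 0 by DESeq2). A stricter description counted fragments captured from 1 allele at 3 or more viewpoints in each line and from the other allele at none. There were 4 such fragments on the 129S5 side, of 1762 captured that often from 129S5 (0.227%), and 10 on the C57Bl6 side, of 1915 (0.522%). The C57Bl6 count exceeded the 129S5 count under each of the 13 other settings of read minimum, viewpoint number and viewpoints left out. The 129S5 fragments numbered 0 when viewpoint 5 was left out.

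The C57Bl6 fragment captured most often was chr4:154181195-154196354, intergenic, captured at 5 viewpoints in E117 and 6 in E118, with 275 and 1556 C57Bl6 reads against 2 and 13 from 129S5. Next came chr4:153133191-153134090, also intergenic, at 4 and 6 viewpoints. Fragment chr4:147241418-147245657 covers exons of Fv1, a retrovirus restriction gene whose alleles differ between mouse strains, and of Miip, and was captured at 3 and 6 viewpoints. It had 81 and 194 C57Bl6 reads and none from 129S5 in either line. The intergenic fragment chr4:147588544-147589192 was captured at 4 and 5 viewpoints, and chr4:154595272-154603957, in exon sequence of Ski, a repressor of TGF-beta signalling, at 4 and 4.

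On the 129S5 side, chr4:140874624-140883254 covers exon sequence of Epha2, an ephrin receptor gene, and was captured at 3 viewpoints in E117 and 5 in E118, with 115 and 352 reads against 4 and 5 from C57Bl6. The intergenic fragments chr4:153115101-153116416, chr4:145021119-145023179 and chr4:108020298-108030272 followed, at 3 and 5, 3 and 4, and 3 and 3 viewpoints. The ends of chr4:145021119-145023179 occurred 10 and 17 times among the fragment ends of the chromosome 4 reference, so that read assignments there are uncertain.

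These fragments were chosen on E117 and E118, and the other lines give measurements that did not choose them. Outside the deleted region and its margins, the 8 C57Bl6-side fragments were captured from +DBl6 in 14 of 48 fragment, viewpoint and line combinations at viewpoints 1, 2 and 12, and from Df in 2. The 3 fragments on the 129S5 side were captured from Df in 4 of 18 and from +DBl6 in 2. At viewpoints 3 to 8, where only the C57Bl6 chromosome of these lines has a viewpoint, the 10 C57Bl6-side fragments were captured in 42 of 120 combinations, and the 4 on the 129S5 side in 2 of 48. The C57Bl6 side was again captured mainly from the C57Bl6 chromosome, and the counts on the 129S5 side were small.

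The ends of the Fv1 and Epha2 fragments are given as the genic examples of the 2 directions, with the HindIII site in capitals.
Fv1 and Miip fragment, start, chr4:147241412-147241441, plus strand: AAGCTTggggaacgtctaggggctttacct
Fv1 and Miip fragment, end, chr4:147245628-147245657, minus strand: AAGCTTaagtgtgagactataactatctag
Epha2 fragment, start, chr4:140874618-140874647, plus strand: AAGCTTataggggtgactattttgggttct
Epha2 fragment, end, chr4:140883225-140883254, minus strand: AAGCTTgtgggaaagtcttgtctccagcat

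At the level of genes, the difference lay in the Skint cluster. Skint genes encode transmembrane immunoglobulin-family proteins, and Skint1 selects a population of epidermal T cells in the thymus. Captures, the fragment and viewpoint pairs with at least 5 reads, were summed within each protein-coding gene and 10 kb on either side. Of 1130 genes tested 4 passed (0.354%; edgeR quasi-likelihood test with the line as a block), all 4 were Skint genes, and all were captured more often from C57Bl6. An unadjusted p below 0.05 was reached by 37 genes (3.27%), and the line term passed in 6 (0.531%).

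Skint6, at chr4:112477221-112959578, had 4 captures from 129S5 and 16 from C57Bl6 in E117, and 14 and 48 in E118. C57Bl6 was higher in both lines (log2 difference -1.75, SE 0.24, n = 2 lines, edgeR adjusted p = 0.00055). Skint9, at chr4:112058574-112106590, had none from 129S5 in either line and 4 and 12 from C57Bl6 (edgeR adjusted p = 0.0029). Against a floor of 3 captures over both 129S5 columns, its captures were at least 5.16-fold higher from C57Bl6. Skint3, at chr4:111904850-111973073, had 0 and 5 captures in E117 and 4 and 22 in E118 (log2 difference -2.62, SE 0.55, edgeR adjusted p = 0.0076). Skint4, at chr4:111744621-111840681, had 3 and 5 in E117 and 1 and 20 in E118 (log2 difference -2.51, SE 0.57, edgeR adjusted p = 0.018). The captures were few in E117, and for Skint4 the difference there was 2 captures. The counts of Skint4, Skint3 and Skint9 come from neighbouring stretches of 1 interval and, with the 10 kb extension, do not overlap.

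All 11 Skint genes were tested, 8 had a log2 difference below 0 and 3 above, and the median was -0.43 against 0.01 over all 1130 genes. The other 7 did not pass. Skint2, for example, had 2 and 13 captures in E117 and 12 and 7 in E118, with the lines in opposite order. Skint5, the gene with the most captures in the cluster, had 11 and 17 in E117 and 44 and 56 in E118 (log2 difference -0.34, edgeR adjusted p = 0.988).

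The interval from Skint4 to Skint9, chr4:111744621-112106590, a stretch chosen after its values were seen, held the widest difference. It had 4 captures from 129S5 and 22 from C57Bl6 in E117, and 5 and 63 in E118. In the 1 Mb before the cluster the counts were 108 and 134 in E117 and 234 and 217 in E118, and in the 1 Mb after it 189 and 203, and 330 and 349. The 129S5 share of captures was thus 15.4% and 7.35% in the interval, and 44.6% to 51.9% in the flanks. In the deletion lines, which did not enter the fit, viewpoints 1, 2 and 12 captured the interval 0 and 0 times from Df and 3 and 4 times from +DBl6 in E71 and E98. Over the whole cluster these counts were 5 and 15 in E71 and 14 and 23 in E98, against 16 and 14, and 31 and 26, in the 1 Mb before it.

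The larger interval from Skint4 to Skint6 was bounded by the called genes, and so was chosen on these same captures. It was captured less often from 129S5 in both lines at 8 of the 9 viewpoints, and equally often from both alleles at viewpoint 2. At viewpoint 6 the captures from 129S5 and C57Bl6 were 1 and 9 in E117 and 9 and 48 in E118. At viewpoint 7 they were 0 and 11, and 12 and 35. At viewpoint 5 they were 6 and 14, and 3 and 14. No single viewpoint held all of the difference. These counts only divide the captures that chose the interval, and give no separate support.

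Of the 30-base fragment ends, 74.1% in the cluster and 87.9% over the chromosome were unique among the fragment ends of chromosome 4. In the interval from Skint4 to Skint9 it was 82.3%, against 92.0% and 91.1% in the flanks. These are exact matches within chromosome 4, whereas the authors aligned to the ends of mm9 with up to 3 mismatches. The part of strain differences in sequence or copy number was not tested. Leaving out viewpoint 5 raised the adjusted p of all 4 genes to between 0.657 and 0.998, with unadjusted p from 0.0006 to 0.022. Fitted without the block, 0 of the 4 passed when 129S5 of E117 or C57Bl6 of E118 was left out, 1 gene passed without 129S5 of E118 and 4 without C57Bl6 of E117. Over the 21 alternatives in which the gene was tested (20 for Skint9), the log2 difference of each of the 4 genes stayed below 0, with adjusted p from 2.53e-07 to 0.9999.

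**Figure D5:**
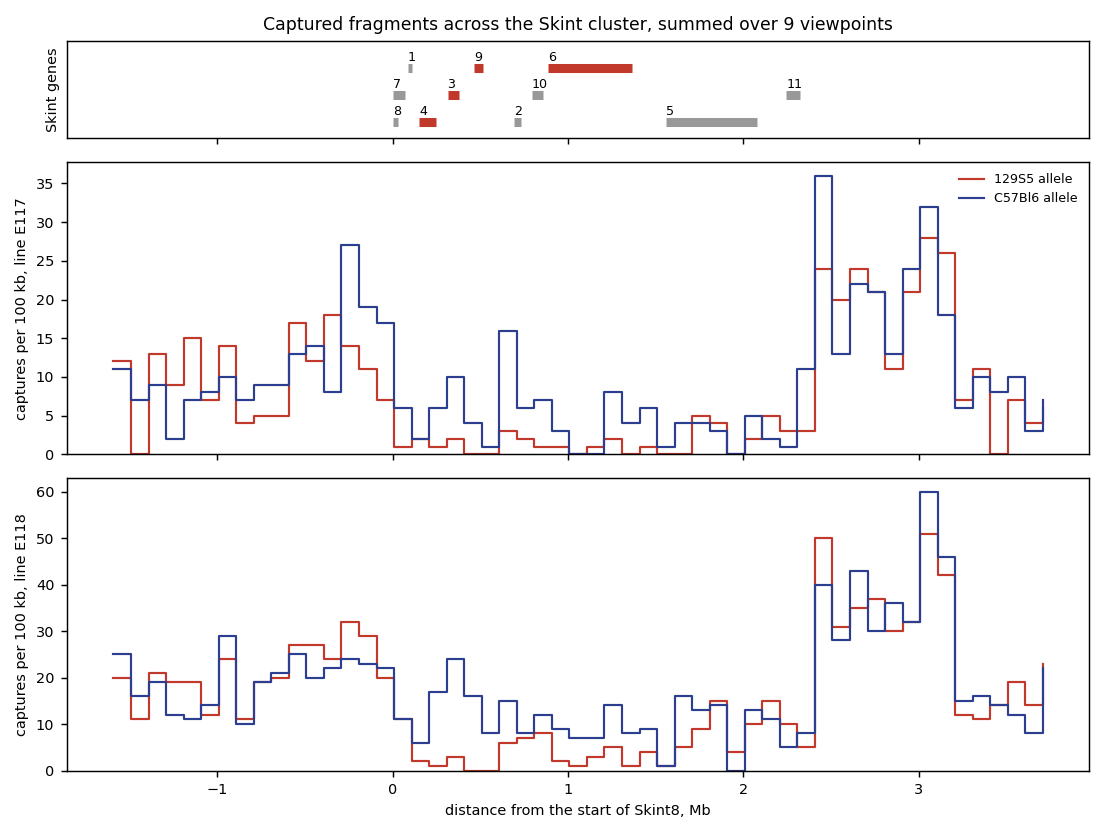
Captures per 100 kb summed over the 9 viewpoints in line E117 (middle) and E118 (bottom), red 129S5 and blue C57Bl6, against distance from the start of Skint8 in Mb. The top panel gives the Skint genes by number, with the 4 called genes in red. Between Skint4 and Skint6 the blue line lies above the red one in nearly every bin of both lines, and on both sides of the cluster the lines cross repeatedly.

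Other gene groups showed no called member. Among clusters that often vary between mouse strains, 8 of 16 interferon genes, 7 of 8 Cyp4 genes, 3 of 6 Pramel and Oog genes and 15 of 24 olfactory receptor genes had enough captures to test, and 0 of each were called. Their median log2 differences were -0.05, 0.33, -0.36 and 0.06. None of the 21 Mup genes, which encode major urinary proteins, was tested, and 13 of them had no capture in any library. Of the growth and fibroblast genes 21 of 22 were tested and 0 called, with a median of 0.01. Rere, a nuclear receptor corepressor, had 303 and 329 captures in E117 and 368 and 373 in E118. Mtor, the growth-regulating kinase, had 155 and 148, and 184 and 189.

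The band 4E2 genes around the viewpoints were all captured often, and 0 of 21 were called. Their log2 difference was above 0 in 19 and below 0 in 2, with a median of 0.11 against 0.01 over all genes. Over all 1130 genes it was above 0 in 578 and below 0 in 552. The summed captures of the list were near equal, with 2178 from 129S5 and 2140 from C57Bl6 in E117, and 3061 and 3009 in E118. Camta1 had 857 and 830 captures in E117 and 1167 and 1145 in E118 (log2 difference 0.11, SE 0.081, edgeR adjusted p = 0.988). Prdm16, a regulator of brown fat identity, had 264 and 257, and 447 and 438. These genes are next to the viewpoints and share fragments. In captures Camta1 was thus near equal on both homologues, while reads in 2 of its windows from viewpoint 4 differed.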

How the data were processed

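Each deposited file lists, for 1 library, the unscaled count of reads at every HindIII fragment of chromosome 4. The authors split read pairs by the strain SNP in the viewpoint read, trimmed the partner read to 30 bases and aligned it with bowtie to sequences bordering HindIII sites of mm9 (NCBI37), with up to 3 mismatches and unique matches kept. The bowtie version is not given in the sources used here. All 48319 HindIII sites of the NCBIM37 reference matched fragment ends. Region tables of the authors' own comparisons were not used.

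Groups, viewpoints and lines came from the labels, and viewpoint fragments from the listed primers. Reads within 20 kb of the viewpoint were left out, except from exponents, which used distances from 1 kb and a smoothing spline with 4 degrees of freedom. The quasi-likelihood test of edgeR 4.0.16 (R 4.3.3, TMM factors) was applied to 80 kb windows that reached 10 reads in 2 or more of the 4 libraries, to fragments with a sum of at least 6 and to genes with a sum of at least 10. Other measures were tested with limma 3.58.1, with log2(percent + 0.01) for blocks. DESeq2 1.42.0 was an alternative. Every test had the line as a block, because both alleles of a line come from the same cells and template. Deviations of the allele libraries of a line correlated at r = 0.025 to 0.35, with the lowest values at viewpoints 5, 6 and 12. Adjusted p-values are Benjamini-Hochberg over all features of a measure, with a threshold of 0.05. They rest on 2 lines, with the variance of a feature drawn towards that of the features fitted with it. For distance classes and upstream shares the variance was pooled fully, with 1 SE for all classes (0.076) and 1 for all upstream shares (1.44). Those p-values thus rest on the spread over all viewpoints, and not on that of 2 lines at 1 viewpoint. Fits were checked on simulated data, and descriptions used Python 3.11.15 with numpy 2.4.6 and scipy 1.17.1.

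The 3 windows of lowest adjusted p whose allele order was alike in E117 and E118 were named. Of classes, domain measures and blocks, those that passed or else the smallest p were named, with every called gene, the 2 members of each gene list with most captures and the 5 one-allele fragments per direction with most capturing viewpoints. Members and lists were chosen with earlier results of these data known. Of 22 band 4E2 symbols 21 were in the annotation (GENCODE vM1). The 129S5 genome sequence was not used here.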

Additional observations from a re-analysis of the deposited data

How the results depend on the processing

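Without the replicate block, which ignores the pairing of alleles within a line, 0 of the windows, 0 distance classes and 1 gene passed, in place of 5, 3 and 4. Leaving out 1 library at a time was fitted without the block, since a block then leaves no residual degrees of freedom, and the lone library was assumed to vary like the other group. Calls then ranged from 0 to 4 for windows, 0 to 0 for distance classes, 1 to 4 for blocks against 0 in the full fit, and 0 to 4 for genes. For genes the count was 0 without 129S5 of E117 or without C57Bl6 of E118, 1 without 129S5 of E118 and 4 without C57Bl6 of E117. For windows it was 4 without C57Bl6 of E118 and 0 without each of the others.

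Windows numbered 2 at 160 kb, 2 with a 50 kb viewpoint zone, 3 with a minimum of 100 reads, 2 with no filter, 0 as captured fragments, 0 by the Mann-Whitney test and 163 by DESeq2. As captured fragments the windows of viewpoints 3 and 4 reversed, to log2 differences of 0.029 and 0.11. The 20 to 100 kb class of viewpoint 3 reversed to a log2 difference of 0.032. Distance classes numbered 0 with a 50 kb zone and 0 as captured fragments. Genes numbered 0 with a 50 kb extension, 0 by DESeq2, 2 with captures of 1 read, 0 without viewpoint 5, and 2 without viewpoint 6 or 7 (the viewpoint omissions were chosen after seeing the data). Exponents called numbered 3 with a straight line, 1 with a spline of 6 degrees of freedom and 1 with fragments of at least 5 reads. The cause of these changes was not tested.

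One-allele fragments numbered 28 on the 129S5 side and 66 on the C57Bl6 side at 2 viewpoints, 0 and 4 at 4 viewpoints, and 2, 0 and 2 on the 129S5 side without viewpoints 4, 5 and 12. Shared near fragments between alleles came to 79.97% with captures of 20 reads and 78.1% with reads under 20% of the other allele removed, where lines shared 86.4%. Shared far fragments came to 51.4% between alleles and 40.4% between lines with captures of 1 read, and to 18.1% between alleles with the 20% removal. The far r between alleles was 0.481 and 0.468 with the 10% and 20% removals, both chosen after seeing the data. Depth limits the far range, where E117 libraries at viewpoints 6 to 8 held few captured fragments.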

Other observations

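Some far regions were captured from both homologues in both lines at nearly all viewpoints. They were found by ranking after the data had been seen, and are given as values with no test. At each viewpoint only what lay more than 10 Mb from it was counted. A window nearer than that, such as chr4:138320001-138400000 at viewpoint 1, could not be counted there. Of the 1946 windows of 80 kb over the whole chromosome, 946 had a captured fragment in all 4 libraries at 1 or more viewpoints. At 8 or more viewpoints 7 did so. The window chr4:124560001-124640000 did so at all 9. It holds Cdca8, which encodes borealin of the chromosomal passenger complex, and Epha10, an ephrin receptor gene. At 8 viewpoints stood chr4:117440001-117520000 with Slc6a9, a glycine transporter gene, chr4:131680001-131760000 with Oprd1, an opioid receptor gene, and Ythdf2, which encodes a reader of methylated RNA, and chr4:138320001-138400000 with the phospholipase genes Pla2g2d and Pla2g5.

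The number of far windows captured from both alleles differed most between lines at viewpoints 6, 7 and 8, where E117 was shallow. At viewpoint 5, in Acot7, 894 windows in E117 and 874 in E118 were captured from both alleles, and 670 in all 4 libraries. At viewpoint 8 the numbers were 72 in E117 and 506 in E118, with 67 in all 4.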
